A study of Mus musculus with 16 samples.

Results

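The collagen chains of epididymal fat were examined on expression arrays of mice. All genes whose symbol consists of Col, a number, the letter a and a further number were taken, which gave 42 genes of the 19505 with a symbol on the array. Each was measured by 1 transcript cluster, a group of probes against 1 gene, among the 22206 clusters that are not controls. The fibrillar class holds 11 of the 42 and the basement membrane class 8, and the other 23 comprise 6 collagen VI chains, 8 fibril-associated (FACIT) chains, 3 short chains, 4 transmembrane chains and 2 unclassed chains.

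The samples came from 16 male C57BL/6 pups of C57Bl/6 NCrSlc dams, 1 array a pup and 4 pups a group. Dams of NN pups ate regular chow freely, whereas dams of UN-RG pups received 60% of that energy while pregnant. The UN-RG litters were cut to 4 pups, which sped the growth of the pups in infancy (RG). The paper states that NN litters were adjusted as well, to a larger number of pups. All 4 groups received a high-fat diet (HFD) from 9 wks. From 11 to 16.5 wks they received either oral tauroursodeoxycholic acid (TU), a bile acid used as a chemical chaperone, or vehicle (Veh). The fat was sampled at 16.5 wks. The NN pups thus form the groups NN-Veh and NN-TU, and the UN-RG pups form UN-RG-Veh and UN-RG-TU. Undernourishment and rapid growth occur only together in these groups, so that their effects cannot be told apart, and the litter of each pup is not given in the sources used here. The titles and the maternal diet of the NN-TU samples say NN, which was followed here, although their source label also carries the letters RG.

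Collagens are triple helices, most of them secreted, of 3 chains. Fibrillar collagens I, III and V form the tension-bearing fibrils between fat cells, collagen VI forms beaded filaments beside the cells, and collagen IV forms the network of the basement membrane that encloses each adipocyte and vessel. The matrix of adipose tissue is made largely by fibroblast-like stromal cells and by the adipocytes themselves, and its build-up accompanies obesity.

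Values are log2 intensities. The median of an array was 6.997 to 7.156, the median of its 220 antigenomic controls, designed to match no transcript of the mouse, lay at 6.27 to 6.85, and arrays of 1 group correlated at 0.977 to 0.995. The tissue label was borne out by *Adipoq* at 18.0 to 18.4, *Plin1* at 15.1 to 15.7 and *Lep* at 17.3 to 17.8, and all 13 adipocyte markers stood above the control median on all arrays. The arrays UN-RG-TU 14, NN-Veh 02, NN-TU 08 and UN-RG-Veh 12 carried transcripts of motile cilia, with a mean log2 level of the 12 measured cilia genes of 7.22 to 8.73 against 5.33 to 5.81 on the other 12. NN-Veh 03 and NN-TU 08 carried testis transcripts, with 7.13 and 7.08 against 4.64 to 5.78. Collagen genes that passed only with or only without these arrays are named with each comparison or gene.

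Of the 42 collagen genes, 21 exceeded the control median on all 16 arrays, 7 on some and 14 on none. The 21 comprised 6 fibrillar chains (*Col1a1*, *Col1a2*, *Col3a1*, *Col5a1*, *Col5a2*, *Col11a2*), 4 basement membrane chains (*Col4a1*, *Col4a2*, *Col15a1*, *Col18a1*), 5 of the 6 collagen VI chains, 3 FACIT chains (*Col14a1*, *Col16a1*, *Col20a1*), *Col8a2*, *Col13a1* and *Col28a1*. Above or below the controls refers to their median only, and their 95th percentile was 9.64 to 10.49 over the arrays. *Col5a1*, *Col5a2*, *Col6a6*, *Col8a2*, *Col11a2*, *Col13a1*, *Col14a1*, *Col16a1*, *Col20a1* and *Col28a1* had means over the 16 arrays under 9.64. These 16-array means thus lay inside the spread of the controls. The 14 included *Col2a1*, *Col9a1*, *Col9a2* and *Col10a1*, chains known from cartilage, for which the arrays gave no level above the controls in this fat. For genes whose means were below the controls in both groups compared, levels or counts are given without a fold change.

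The DNA before the start of 4 genes is shown because these 4, *Col3a1* and the collagen VI chains *Col6a1*, *Col6a2* and *Col6a3*, were among the 5 that passed the thresholds together in NN-TU. The windows end 1 base before the annotated start and are taken from RefSeq on GRCm38.p6, written 5′ to 3′ on the strand of the gene, with matches in capitals. The letters sought on both strands were the TATA box TATAAA, the CCAAT box, the Sp1 box GGGCGG and the AP-1 site TGANTCA, none of which overlap in these windows.
Col3a1, chr1:45311288-45311537, plus strand: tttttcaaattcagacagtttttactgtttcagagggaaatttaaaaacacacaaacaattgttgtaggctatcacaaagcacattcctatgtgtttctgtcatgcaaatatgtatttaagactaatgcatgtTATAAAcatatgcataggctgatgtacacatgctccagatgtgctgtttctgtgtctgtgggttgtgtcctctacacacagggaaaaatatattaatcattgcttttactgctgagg
Col6a1, chr10:76726045-76726294, minus strand: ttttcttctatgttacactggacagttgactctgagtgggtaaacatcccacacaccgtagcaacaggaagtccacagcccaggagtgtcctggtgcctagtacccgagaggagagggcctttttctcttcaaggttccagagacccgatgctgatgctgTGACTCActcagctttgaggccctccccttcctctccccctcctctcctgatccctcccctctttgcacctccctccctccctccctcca
Col6a2, chr10:76623631-76623880, minus strand: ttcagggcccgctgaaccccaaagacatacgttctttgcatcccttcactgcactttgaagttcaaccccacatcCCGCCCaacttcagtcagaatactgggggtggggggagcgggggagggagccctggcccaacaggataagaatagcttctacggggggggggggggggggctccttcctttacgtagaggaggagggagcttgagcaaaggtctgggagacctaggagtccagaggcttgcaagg
Col6a3, chr1:90844002-90844221, minus strand: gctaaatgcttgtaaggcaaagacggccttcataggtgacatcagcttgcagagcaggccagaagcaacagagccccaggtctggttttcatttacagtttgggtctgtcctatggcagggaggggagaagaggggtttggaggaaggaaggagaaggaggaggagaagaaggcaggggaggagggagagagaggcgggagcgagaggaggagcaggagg

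The window of *Col3a1* holds TATAAA, a match to the TATA box that begins 117 bases before the annotated start. That of *Col6a1* holds TGACTCA, a match to the AP-1 site, and that of *Col6a2* holds the Sp1 box read on the other strand. The window of *Col6a3*, 220 bases long, holds none of the 4 motifs. The 4 windows thus shared none of these motifs. Promoter entries were found for 34 of the 42 genes, with 37 windows, and the fifth gene, *Col5a2*, is not shown. The TATA box occurred in 13.5% of the collagen windows and 12.4% of all 32851 windows, the CCAAT box in 32.4% and 33.8%, the Sp1 box in 56.8% and 32.7%, and the AP-1 site in 2.7% and 6.75%. A match describes the letters only. *Col3a1* and *Col5a2* are neighbours on chromosome 1, 24.6 kb apart with no protein-coding gene between them, and *Col6a2* and *Col6a1* are neighbours on chromosome 10, 85.2 kb apart.

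Each comparison asked whether collagen transcripts differ with the early diet or with TU. A gene passed the thresholds at an unadjusted p under 0.05 with a linear fold change of at least 1.3, which is 0.38 on the log2 scale. No collagen gene had an adjusted p under 0.05 in limma in any comparison. At an unadjusted p under 0.05 alone limma counted 7 members (16.7%) in UN-RG-Veh against NN-Veh beside 6.15% of all clusters, 4 (9.52%) in UN-RG-TU against UN-RG-Veh beside 8.05%, 8 (19%) in NN-TU against NN-Veh beside 4.9%, 0 in UN-RG-TU against NN-TU beside 3.06% and 3 (7.14%) in the interaction beside 3.16%. The share in UN-RG-TU against UN-RG-Veh was near that of all clusters. The methods' t-test also left no member after adjustment. Over all clusters the adjusted p was passed by 0.00901% in UN-RG-Veh against NN-Veh and by 0% in each of the other comparisons. The members named as passing below therefore differ at the unadjusted threshold only. As this is bulk tissue, fewer cells of a type and less RNA per cell cannot be told apart.

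In UN-RG-Veh against NN-Veh, 2 of the 42 were higher, beside 2.46% of all clusters, and 4 were lower, beside 1.99%. These 4, *Col5a1*, *Col5a3*, *Col14a1* and *Col15a1*, are 9.52% of the members. The median log2 fold change was −0.04 for the 42 genes, −0.15 for the 21 above the controls on all arrays and 0.01 for all clusters. The groups did not overlap for 6 members (*Col4a1*, *Col5a1*, *Col13a1*, *Col14a1*, *Col15a1* and *Col17a1*), beside 4.38% of all clusters. *Col16a1* passed as higher without the arrays carrying cilia transcripts and without UN-RG-Veh 12, and *Col6a3* as lower without UN-RG-Veh 11.

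In UN-RG-TU against UN-RG-Veh, none was higher, beside 2.73% of all clusters, and *Col4a2*, *Col16a1* and *Col17a1* were lower, which is 7.14% of the members beside 3.18%. *Col17a1* was the 1 member without overlap, beside 3.89% of all clusters. The median was 0.05 for the 42 genes and −0.11 for the 21. Without the arrays carrying cilia transcripts *Col4a1* passed as lower and *Col4a4* and *Col11a2* as higher. When 1 array was left out, *Col3a1*, *Col4a1*, *Col5a2*, *Col6a1*, *Col6a2* and *Col6a3* passed as lower and *Col15a1* as higher, each in at least 1 fit.

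In NN-TU against NN-Veh, none was higher, beside 1.36% of all clusters, and 5 were lower (*Col3a1*, *Col5a2*, *Col6a1*, *Col6a2* and *Col6a3*), which is 11.9% of the members beside 1.93%. These 5 are 23.8% of the 21 members above the controls on all arrays, beside 2.88% of the 10667 clusters that met the same condition. The groups did not overlap for 4 members (*Col4a1*, *Col4a2*, *Col6a1* and *Col6a3*), beside 3.6% of all clusters. The median was −0.02 for the 42 genes, −0.32 for the 21 and −0.001 for all clusters. The count rests in part on 1 array, since without NN-TU 05 only *Col6a2* and *Col6a3* passed, whereas without NN-Veh 04 or without NN-TU 08 it was 8, of which 7 were lower. Without the arrays carrying cilia transcripts *Col4a2* and *Col5a3* passed as lower and *Col11a1* as higher, and without those carrying testis transcripts *Col15a1* passed as lower.

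In UN-RG-TU against NN-TU no member passed in either direction, with 1.16% of all clusters higher and 0.675% lower, and no member was without overlap, beside 1.89%. At an unadjusted p under 0.05 limma counted 0 members and the methods' t-test 1, beside 2.99% of all clusters. *Col11a2* and *Col13a1* passed as higher without the arrays carrying cilia transcripts and without UN-RG-TU 14, *Col4a1* as lower without UN-RG-TU 14, and *Col6a5* as higher without UN-RG-TU 13 or without UN-RG-TU 15. The interaction, that is the change with TU among UN-RG pups less the change with TU among NN pups, passed the thresholds above 0 for 2 members, *Col5a1* and *Col15a1*, beside 1.36% of all clusters, and below 0 for none, beside 1.64%. Without regard to the thresholds it was above 0 for 26 members and below 0 for 16, beside 11482 and 10724 of the 22206 clusters. In some alternatives *Col6a5*, *Col23a1* or *Col26a1* passed above 0, or *Col16a1* or *Col17a1* below 0. The comparison of UN-RG with NN shares its UN-RG-Veh arrays with the comparison of TU in UN-RG pups and its NN-Veh arrays with that of TU in NN pups.

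**Figure D1:**
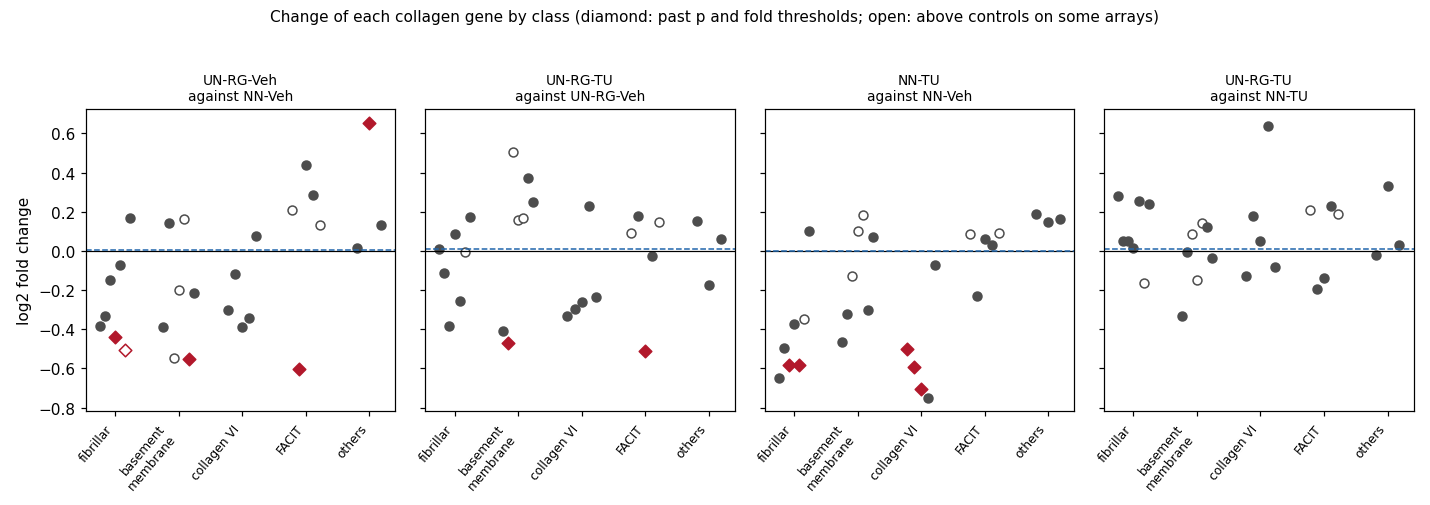
Log2 fold change (y axis) of the 27 collagen genes whose mean exceeded the control median in at least 1 group, by class (x axis), in 4 comparisons. Each point is 1 gene, diamonds passed the thresholds, open symbols were above the controls on some arrays only, and the dashed line is the median of all clusters. In NN-TU against NN-Veh, 3 collagen VI chains lie at −0.50 to −0.70 and all 5 diamonds lie below 0.

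Among the fibrillar chains, collagen I is built from *Col1a1* and *Col1a2*, and neither passed in any comparison in the fit of all 16 arrays. *Col1a1* stood at 11.999, 12.39, 12.05 and 11.42 in NN-Veh, at 10.66, 11.26, 11.64 and 11.70 in NN-TU and at 10.70, 11.69, 11.78 and 12.15 in UN-RG-Veh, with UN-RG-TU at 11.01, 12.20, 11.24 and 11.92. All 4 groups overlapped, and single arrays (UN-RG-TU 13, NN-TU 05 and UN-RG-Veh 09) were the low ones of their groups. The *Col1a1* difference of NN-TU from NN-Veh was −0.65 (95% interval −1.35 to 0.05, limma adjusted p = 1), and that of *Col1a2* was −0.50 (−1.04 to 0.05). Both passed as lower with only the compared groups and without NN-Veh 04, *Col1a1* also without NN-TU 08 and *Col1a2* also by the methods' t-test. UN-RG-Veh differed from NN-Veh by −0.38 for *Col1a1* (−1.08 to 0.31), an interval that includes both no change and a change larger than the threshold.

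*Col3a1* encodes the single chain of collagen III, which forms thin fibrils with collagen I. It stood at 16.11, 16.20, 16.38 and 15.77 in NN-Veh and at 15.05, 15.73, 15.87 and 15.49 in NN-TU, against 15.30, 15.98, 16.35 and 16.24 in UN-RG-Veh, with UN-RG-TU at 15.24, 16.04, 15.34 and 15.72. NN-TU 07 lay above NN-Veh 04, so that these groups overlapped. NN-TU was lower than NN-Veh by −0.58 ± 0.24 (difference ± SE, adjusted p = 0.951), whereas UN-RG-TU against UN-RG-Veh gave −0.38 and passed only without UN-RG-Veh 09 or without UN-RG-TU 14. *Col3a1* no longer passed in NN-TU without NN-TU 05, without NN-TU 08, without NN-Veh 02, without NN-Veh 03, and without the arrays that carried cilia or testis transcripts.

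Collagen V, a minor collagen inside the fibrils of collagen I that limits their width, is encoded by *Col5a1*, *Col5a2* and *Col5a3*. *Col5a1* was 9.24 ± 0.15 in NN-Veh (mean ± SD, n = 4), 8.87 ± 0.22 in NN-TU and 8.80 ± 0.17 in UN-RG-Veh, with UN-RG-TU at 8.88 ± 0.26. NN-Veh was the high group, and its 9.04 to 9.38 lay wholly above the 8.56 to 8.92 of UN-RG-Veh. The difference was −0.44 ± 0.15 (adjusted p = 0.659), which did not pass without the arrays carrying cilia transcripts or without UN-RG-Veh 12. Its interaction was 0.46 ± 0.21 (adjusted p = 1) and passed in 5 of the 16 fits that left out 1 array and under 2 of 7 other settings, not without the arrays carrying cilia or testis transcripts.

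*Col5a2* was 9.44 ± 0.27 in NN-Veh and 8.85 ± 0.30 in NN-TU, with 9.55, 9.71, 9.43 and 9.06 against 8.44, 8.85, 9.11 and 9.02. Only NN-TU 07 reached into the NN-Veh range. The difference of −0.58 ± 0.21 (adjusted p = 0.843) did not pass without NN-TU 05. In UN-RG pups *Col5a2* was 9.37 ± 0.44 with Veh and 9.11 ± 0.20 with TU, which passed only without UN-RG-Veh 09. *Col5a3*, a chain known from adipose and muscle, stood near the controls at 7.17 to 7.85 in NN-Veh and 6.60 to 7.31 in UN-RG-Veh, and was lower in UN-RG-Veh by −0.51 ± 0.18 (adjusted p = 0.688). It did not pass by the methods' t-test or without UN-RG-Veh 12, the 1 array on which it was below the control median.

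Of the other fibrillar chains, *Col11a2* was at 8.21 to 9.17 on all arrays and passed in no comparison with every array included. *Col2a1*, *Col24a1* and *Col27a1* were below the controls on all arrays. *Col11a1* was also below the controls on all arrays, at 4.47 to 4.97 in NN-Veh and 4.93 to 5.45 in UN-RG-Veh, and its pass in UN-RG-Veh is given without a fold change for that reason. It did not pass with quantile normalization, without UN-RG-Veh 11, without NN-Veh 03 or without the arrays carrying testis transcripts.

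*Col6a1*, *Col6a2* and *Col6a3* encode the 3 chains of the main collagen VI molecule, which adipocytes and stromal cells both produce, and a fragment cut from the end of the *Col6a3* chain is known as endotrophin. All 3 were lower in NN-TU than in NN-Veh. *Col6a3* stood at 12.79, 13.09, 12.65 and 12.43 in NN-Veh and at 11.62, 11.999, 12.25 and 12.28 in NN-TU, with no overlap. The difference was −0.70 ± 0.22 (95% interval −1.17 to −0.24, adjusted p = 0.778), and it passed in all 8 fits that left out 1 array of either group, with values from −0.81 to −0.56.

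*Col6a2* stood at 13.44, 13.90, 13.75 and 13.50 in NN-Veh and at 12.64, 12.98, 13.47 and 13.13 in NN-TU. Only NN-TU 07 reached the NN-Veh range. The difference was −0.59 ± 0.21 (adjusted p = 0.843), with −0.73 to −0.45 and a pass in all 8 such fits. *Col6a1* stood at 13.43, 13.82, 13.77 and 13.56 against 12.82, 13.02, 13.41 and 13.32, without overlap but with a narrow gap. Its difference of −0.50 ± 0.23 (adjusted p = 1) passed in 3 of the 8 fits and was lost with each array centred on its median, without the arrays carrying cilia transcripts and without those carrying testis transcripts.

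In UN-RG pups the 3 chains did not pass with TU, except *Col6a3* without UN-RG-Veh 09 and *Col6a1* and *Col6a2* without UN-RG-TU 16. *Col6a3* was 12.35 ± 0.46 in UN-RG-Veh, with UN-RG-TU at 12.09 ± 0.25, a difference of −0.26 (95% interval −0.73 to 0.21). *Col6a2* differed by −0.29 (−0.73 to 0.14) and *Col6a1* by −0.33 (−0.82 to 0.16). The interaction was 0.44 for *Col6a3* (−0.22 to 1.10), 0.30 for *Col6a2* and 0.17 for *Col6a1*, none of which passed, so that a difference between NN and UN-RG pups in the TU effect on collagen VI was not detected and is bounded only by these intervals.

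*Col6a5* and *Col6a6* encode alternative chains. *Col6a5* spread more widely than the others, from 9.81 to 11.02 in NN-TU and from 10.05 to 12.28 in UN-RG-TU, against 11.00 to 11.20 in NN-Veh. Its NN-TU difference of −0.75 had an SE of 0.42 and passed only with the compared groups alone, by the methods' t-test and without NN-TU 07. UN-RG-TU 14, an array with cilia transcripts, held the highest *Col6a5* value of all 16. *Col6a4* was below the controls on all arrays.

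**Figure D2:**
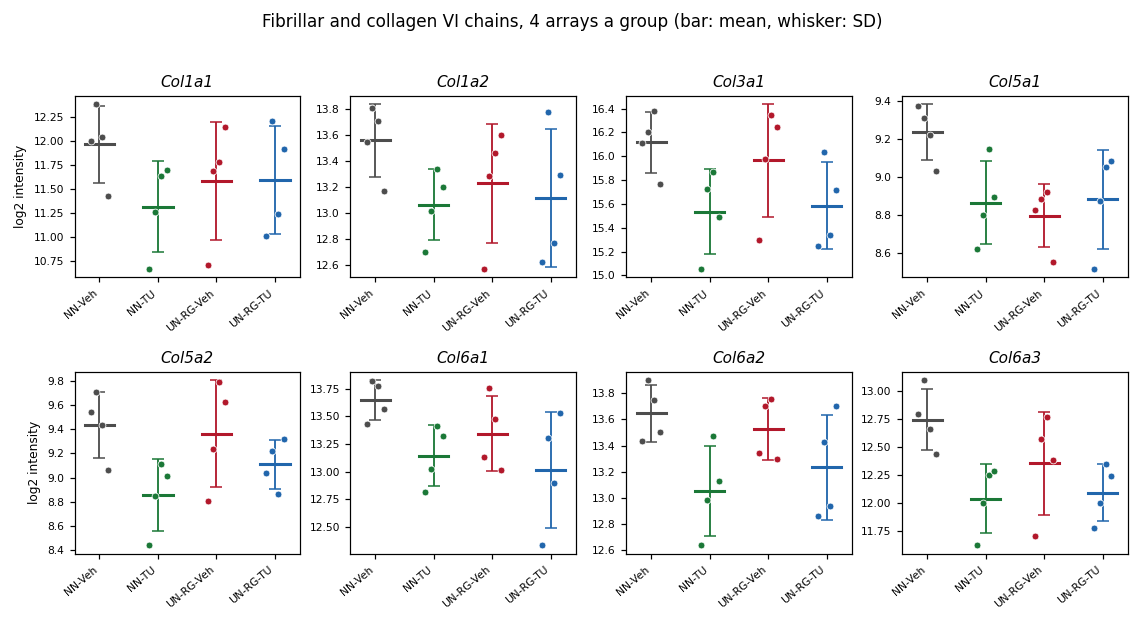
Log2 intensity (y axis) of 8 fibrillar and collagen VI chains in the 4 groups (x axis), with 1 point per array, bars for the mean and whiskers for the SD of 4 arrays. *Col6a1* and *Col6a3* of NN-TU lie wholly below NN-Veh, and single low arrays stand out in NN-TU and UN-RG-Veh for *Col1a1* at 10.66 and 10.70.

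Among the basement membrane chains, *Col4a1* and *Col4a2* encode the widespread collagen IV molecule and lie head to head on chromosome 8. *Col4a2* stood at 12.99, 13.31, 13.24 and 13.17 in UN-RG-Veh, with UN-RG-TU at 12.36, 13.02, 12.65 and 12.79. UN-RG-TU 14 alone lay inside the UN-RG-Veh range. The difference was −0.47 ± 0.15 (95% interval −0.79 to −0.16, adjusted p = 0.333), which did not pass without UN-RG-TU 13. In NN pups TU gave −0.32 ± 0.15 for *Col4a2*, under the fold threshold, with 12.95 to 13.19 in NN-Veh and 12.39 to 12.92 in NN-TU and hence no overlap. The interaction was −0.15 (−0.59 to 0.30).

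*Col4a1* stood at 11.50 to 11.79 in NN-Veh, 10.94 to 11.37 in NN-TU and 11.09 to 11.45 in UN-RG-Veh, with UN-RG-TU at 10.002 to 11.38. Both NN-TU and UN-RG-Veh lay wholly below NN-Veh. The differences were −0.47 ± 0.22 (adjusted p = 1) and −0.39 ± 0.22 (adjusted p = 0.833), and neither passed in the fit of all 16 arrays as deposited. The first passed with quantile normalization, with only the compared groups, with an intensity trend and robust prior, by the methods' t-test and without NN-TU 06, and the second with only the compared groups and by the methods' t-test.

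*Col15a1* and *Col18a1* encode chains that tie basement membranes to the fibrils beside them, and the end of the *Col18a1* chain is known as endostatin. *Col15a1* stood at 12.59, 12.35, 12.11 and 12.48 in NN-Veh and at 11.76, 11.95, 11.93 and 11.68 in UN-RG-Veh, with no overlap. UN-RG-Veh was lower by −0.55 ± 0.13 (95% interval −0.84 to −0.27, adjusted p = 0.389), and the difference passed in all 8 fits that left out 1 array, from −0.64 to −0.49, and under all 9 other settings. With TU, *Col15a1* stood at 11.98, 12.16, 12.10 and 12.08 in NN pups and at 11.91, 12.12, 12.40 and 12.38 in UN-RG pups.

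TU thus went with a lower mean of *Col15a1* in NN pups (−0.30 ± 0.13) and a higher one in UN-RG pups (0.37 ± 0.13), both under the fold threshold. The first passed without NN-Veh 03, and the second in 4 of the 8 fits that left out 1 array. The interaction was 0.67 ± 0.19 (95% interval 0.27 to 1.08, adjusted p = 1), and it passed in all 16 fits that left out 1 array, from 0.60 to 0.77, and under all 7 other settings. The interaction and the UN-RG comparison share the NN-Veh and UN-RG-Veh arrays. *Col18a1* was 11.84 ± 0.08 in NN-Veh, 11.91 ± 0.17 in NN-TU and 11.62 ± 0.26 in UN-RG-Veh, with UN-RG-TU at 11.87 ± 0.15, and no comparison passed.

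*Col4a3* and *Col4a4* encode chains of the specialised collagen IV of kidney and other epithelia. *Col4a3* stood at 8.99 on NN-Veh 02, 8.89 on NN-TU 08, 7.98 on UN-RG-Veh 12 and 8.59 on UN-RG-TU 14, the 4 arrays with cilia transcripts, and at 6.11 to 7.20 on the other 12. Its levels thus moved with the cilia transcripts in every group, and no comparison of groups passed. *Col4a4* reached 7.999, 7.70 and 7.83 on the first 3 of these arrays and 6.80 on UN-RG-TU 14, against 5.99 to 7.06 on the others.

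**Figure D3:**
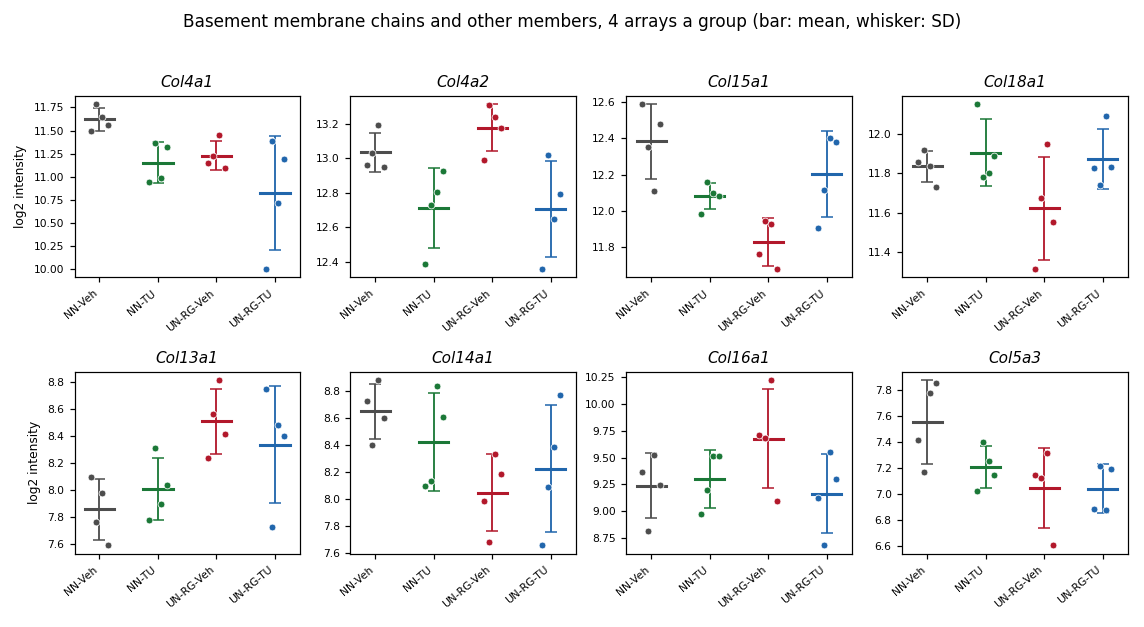
Log2 intensity (y axis) of 4 basement membrane chains and 4 other members in the 4 groups (x axis), with 1 point per array, bars for the mean and whiskers for the SD of 4 arrays. *Col15a1* of UN-RG-Veh, at 11.68 to 11.95, lies below all NN-Veh arrays, and *Col13a1* of UN-RG-Veh lies above them.

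Among the FACIT and transmembrane chains, *Col13a1* encodes a transmembrane collagen of sites where cells attach to the matrix. It stood at 8.10, 7.76, 7.98 and 7.59 in NN-Veh and at 8.24, 8.56, 8.81 and 8.42 in UN-RG-Veh. The groups did not overlap, and UN-RG-Veh was higher by 0.65 ± 0.20 (95% interval 0.23 to 1.08, adjusted p = 0.552). It passed in all 8 fits that left out 1 array, from 0.55 to 0.74, and under all 9 other settings. In UN-RG-TU it was 8.34 ± 0.44, with UN-RG-TU 14 at 7.72 and the others at 8.40 to 8.75, and TU gave no pass in either diet.

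*Col14a1*, which encodes a FACIT chain on the surface of fibrils, stood at 8.73, 8.40, 8.88 and 8.60 in NN-Veh and at 7.99, 7.68, 8.33 and 8.19 in UN-RG-Veh. UN-RG-Veh lay wholly below, by −0.60 ± 0.23 (adjusted p = 0.71), which did not pass without UN-RG-Veh 10 or without the arrays carrying testis transcripts. *Col14a1* in UN-RG-TU ranged from 7.66 to 8.76 and overlapped both.

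*Col16a1*, a further FACIT chain, stood at 9.71, 9.68, 10.22 and 9.09 in UN-RG-Veh, with UN-RG-TU at 9.12, 8.68, 9.55 and 9.30, with overlap. The difference of −0.51 ± 0.23 (adjusted p = 0.594) passed in 3 of the 8 fits that left out 1 array and under 6 of 9 other settings. *Col17a1*, which is known from the anchoring of skin epithelium, was below the controls on all arrays at 4.96 to 5.04 in UN-RG-Veh, with UN-RG-TU at 4.54 to 4.71, and no fold change is given. It did not pass without the arrays carrying cilia transcripts.

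**Figure D4:**
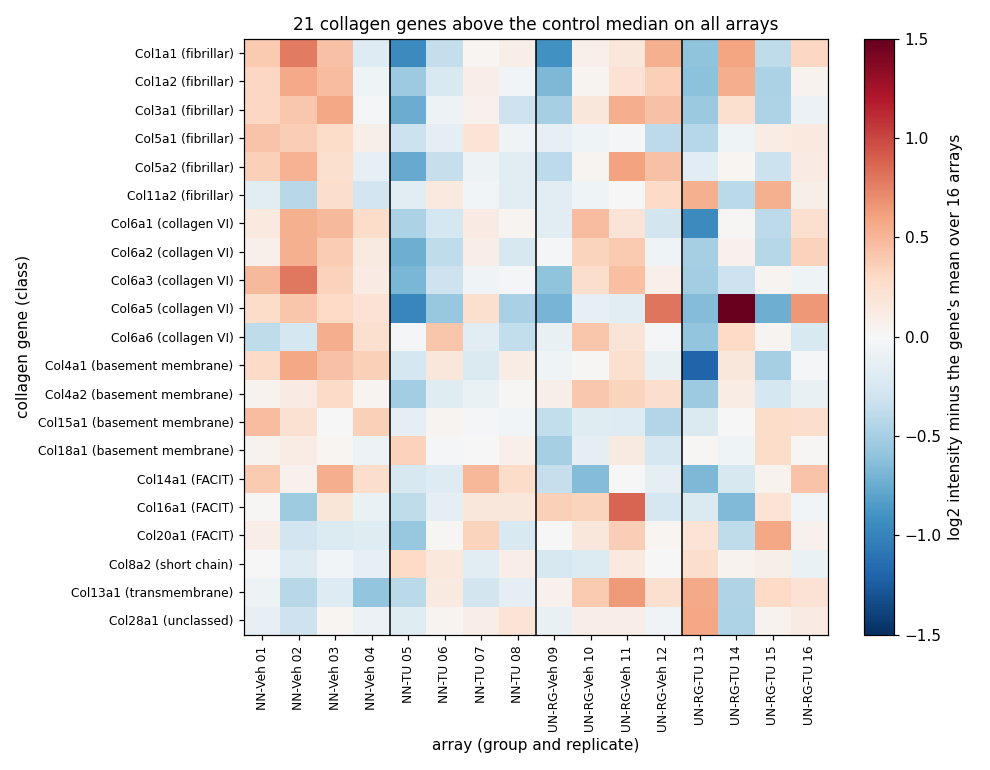
Log2 intensity minus the mean of the gene over the 16 arrays (colour) for the 21 collagen genes above the control median on all arrays (y axis, with class) on each array (x axis, vertical lines between groups). Blue columns at UN-RG-TU 13, NN-TU 05 and UN-RG-Veh 09 cover most fibrillar and collagen VI genes, with a collagen VI mean of −0.65, −0.58 and −0.32.

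The fibrillar and collagen VI chains were also viewed as class means on each array, from which single chains departed. *Col11a2* had its highest value of the 16 arrays, 9.17, on UN-RG-TU 13. *Col5a1* had its lowest UN-RG-Veh value, 8.56, on UN-RG-Veh 12, where *Col1a1* had its highest of that group, 12.15. The mean deviation of the 5 collagen VI chains above the controls was 0.12 to 0.41 in NN-Veh, −0.58 to 0.05 in NN-TU and −0.32 to 0.27 in UN-RG-Veh, with UN-RG-TU at −0.65 to 0.31, so that NN-Veh stood above NN-TU without overlap, while the ranges of the other groups were wide. For the 6 fibrillar chains the ranges were −0.10 to 0.38, −0.58 to 0.04, −0.46 to 0.28 and −0.30 to 0.15. UN-RG-TU 13, NN-TU 05 and UN-RG-Veh 09 were the lowest arrays of their groups in the fibrillar, collagen VI and basement membrane chains alike. The 6 chains outside these classes did not follow throughout. Their mean deviation was −0.24 on NN-TU 05, but 0.12 on UN-RG-TU 13 and −0.36 on UN-RG-TU 14, where collagen VI stood at −0.65 and 0.31.

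Chains that assemble with each other or share fibrils were correlated over the 16 arrays in 8 pairs, with permutation p-values adjusted over the 8. *Col1a1* and *Col1a2* gave Pearson r = 0.96 (adjusted permutation p = 4e-05) and Spearman rho = 0.96, and r = 0.96 without the 2 arrays farthest from the median. *Col1a1* and *Col3a1* gave r = 0.86 (permutation 4e-05, rho = 0.83), *Col6a1* and *Col6a2* r = 0.88 (permutation 5.33e-05, rho = 0.93) and *Col6a1* and *Col6a3* r = 0.74 (permutation 0.00212, rho = 0.72). These 4 pairs held without the 2 farthest arrays, at 0.78, 0.89 and 0.64 for the last 3, and with group means removed, at 0.97, 0.89, 0.91 and 0.57, so that the chains of these pairs varied together among pups within groups.

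*Col4a1* and *Col4a2* gave r = 0.69 (permutation 0.00339) and rho = 0.60 (permutation 0.0248). The r was 0.44 (permutation 0.152) without the 2 farthest arrays and did not pass there. It was 0.77 (permutation 0.0138) with group means removed and 0.74 (permutation 0.00694) without the arrays carrying cilia transcripts. *Col4a3* and *Col4a4* gave r = 0.76 (permutation 0.00259, rho = 0.53), which was 0.06 without the arrays carrying cilia transcripts. *Col5a1* and *Col5a2* gave r = 0.42 (permutation 0.12, rho = 0.48, and 0.20 without the 2 farthest arrays) and *Col4a5* and *Col4a6* r = 0.15 (permutation 0.572, rho = 0.28, and 0.16). Neither of these pairs passed. All 16 arrays share the scaling of the deposited values.

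**Figure D5:**
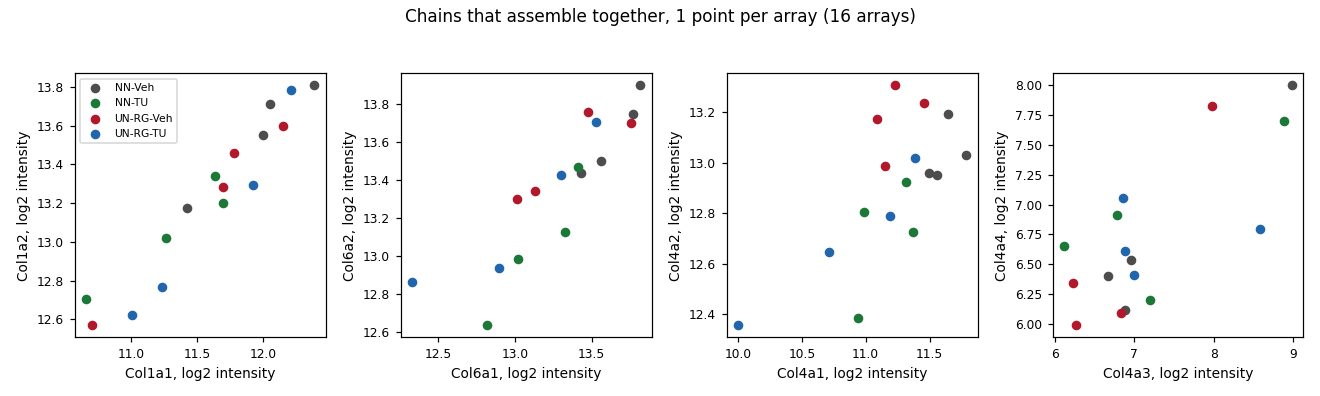
Log2 intensities of 4 pairs of collagen chains (x and y axes) with 1 point per array, coloured by group. *Col1a1* with *Col1a2* (r = 0.96) and *Col6a1* with *Col6a2* (r = 0.88) line up across groups, whereas the *Col4a3* with *Col4a4* relation (r = 0.76) rests on the few arrays with high *Col4a3*.

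The enzymes that modify, fold and trim procollagen were compared as a list of 20 measured genes. For this and the later lists, the shares of all clusters passing as higher and as lower were 2.46% and 1.99% in UN-RG-Veh against NN-Veh. They were 2.73% and 3.18% in UN-RG-TU against UN-RG-Veh, and 1.36% and 1.93% in NN-TU against NN-Veh. A single gene passing in a short list says little about that list. In NN-TU against NN-Veh, 5 of the 20 enzymes were lower and none higher, with a median of −0.22. They were *P3h1*, a prolyl 3-hydroxylase (−0.56 ± 0.16, adjusted p = 0.682), *Pcolce2* and *Pcolce*, enhancers of the proteinase that trims the procollagen end (−0.66 ± 0.19 and −0.75 ± 0.28), *Plod2*, a lysyl hydroxylase (−0.69 ± 0.22), and *Serpinh1*, the collagen chaperone, which was −0.40. *P3h1*, *Pcolce2* and *Plod2* passed in all 8 fits that left out 1 array and under all 9 other settings, whereas *Serpinh1* was lost with each array centred on its median, by the methods' t-test and without the arrays carrying cilia transcripts. In UN-RG-TU against UN-RG-Veh, 3 were lower, *Pcolce2* (−0.99 ± 0.19, adjusted p = 0.0723), *Plod1* (−0.57 ± 0.20) and *P3h1*, and 2 were higher, *P3h4* (0.56 ± 0.16) and *Adamts14*, which trims the other end (0.54 ± 0.22). Of these, *Pcolce2* and *P3h4* passed in all such fits, and *Adamts14* in 3 of the 8 that left out 1 array. The mean of *P3h4* was below the control median in UN-RG-Veh, at 6.48. In UN-RG-Veh against NN-Veh, *Adamts14* was lower (−0.71 ± 0.22, adjusted p = 0.552), and *P4ha3*, a prolyl 4-hydroxylase chain below the controls in both groups, passed as higher. Of the 4 measured lysyl oxidases, which cross-link collagen, *Lox* alone passed, lower in UN-RG-TU than in UN-RG-Veh (−0.66 ± 0.29), and not by the methods' t-test or with only the compared groups.

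Of 16 genes of proteins that bind fibrils, UN-RG-Veh against NN-Veh gave 4 lower and 1 higher, beside 1.99% and 2.46% of all clusters. The lower ones were *Postn*, periostin (−0.64 ± 0.24, adjusted p = 0.7), *Fn1*, fibronectin (−0.61 ± 0.24), *Dpt*, dermatopontin (−0.52 ± 0.21), and *Tnxb*, tenascin X (−0.43 ± 0.19), and the higher one was *Thbs2* (0.64 ± 0.30). *Tnxb* did not pass with each array centred on its median or with quantile normalization, *Fn1*, *Dpt* and *Tnxb* not without the arrays carrying testis transcripts, and *Postn* and *Thbs2* not without those carrying cilia transcripts. *Postn* was also the 1 gene lower in NN-TU (−0.73 ± 0.24), and with TU in UN-RG pups *Dpt* was higher (0.65 ± 0.21) and *Thbs2* lower (−0.68 ± 0.30). Of 14 partners of collagen in basement membranes none passed in UN-RG-Veh. With TU in UN-RG pups *Lamb2*, a laminin chain, was higher (0.50 ± 0.15) and *Lamb3* lower (−0.76 ± 0.30). *Lamb3* was lower in NN-TU as well (−0.67 ± 0.30), but not with each array centred on its median.

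Of 15 genes of collagen breakdown, *Mmp3*, a matrix proteinase, exceeded NN-Veh in UN-RG-Veh (1.19 ± 0.26, adjusted p = 0.345) and was lower with TU in those pups (−1.34 ± 0.26, adjusted p = 0.078). *Timp4*, an inhibitor of such enzymes, went the other way, at −0.99 ± 0.29 and 1.31 ± 0.29 (adjusted p = 0.104). These pairs of values share the UN-RG-Veh arrays. *Mmp3* and *Timp4* passed both comparisons in all fits that left out 1 array and under all 9 other settings. The mean of *Mmp3* was below the control median in NN-Veh (6.50) and in UN-RG-TU (6.35), so that the size of its changes is uncertain. *Mmp11* (1.13 ± 0.37) was also higher in UN-RG-Veh, and with *Mmp8*, which was below the controls in both groups, this made 3 higher and 1 lower, beside 2.46% and 1.99% of all clusters. In NN-Veh *Mmp11* too was below the control median, at 6.21. In UN-RG-TU, *Mmp9*, below the controls in both groups, passed as higher, and *Mrc2*, an uptake receptor for collagen, and *Mmp14* were lower (−1.24 ± 0.48 and −0.50 ± 0.20). Neither *Mrc2* nor *Mmp14* passed by the methods' t-test, and each passed in 5 of the 8 fits that left out 1 array. In NN-TU, *Timp1* was lower (−1.24 ± 0.43) and *Mmp11* higher (0.99 ± 0.37). By the methods' t-test *Timp1* did not pass in NN-TU, nor did *Mmp11* in UN-RG-Veh. Of 7 collagen receptors, *Lair1* alone passed, lower in UN-RG-TU (−0.69 ± 0.25). It did not pass by the methods' t-test or without the arrays carrying cilia transcripts.

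TGFβ signalling is known to drive collagen transcription. Of 12 genes of this pathway and of fibrosis, UN-RG-TU against UN-RG-Veh gave 5 higher and none lower, beside 2.73% and 3.18% of all clusters. They included *Tgfb3* (0.48 ± 0.14, adjusted p = 0.279), *Ccn2* (1.10 ± 0.32) and *Acta2* (0.55 ± 0.18), which passed in all fits run, and *Ltbp2*, which was below the controls in both groups. The relation of this list to the collagen chains was not tested. *Acta2*, the actin of smooth muscle and myofibroblasts, was lower in UN-RG-Veh (−0.69 ± 0.18) and in NN-TU (−0.56 ± 0.18), each against NN-Veh, and was the 1 gene of this list lower in each.

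Markers of other cell types moved with some groups. Of 12 mesothelial genes, UN-RG-Veh against NN-Veh gave 3 lower, beside 1.99% of all clusters, and UN-RG-TU against UN-RG-Veh gave 7 higher, beside 2.73%. The medians were −0.76 and 1.21. The 3 lower ones did not pass without the arrays carrying cilia transcripts or without those carrying testis transcripts. The mean level of that list was 7.43 to 8.68 in NN-Veh, 7.54 to 8.69 in NN-TU and 6.35 to 7.88 in UN-RG-Veh, with UN-RG-TU at 7.70 to 8.98, and 5 of the 12 were above the controls on all arrays. Of 15 macrophage genes, 2 were higher in UN-RG-Veh, beside 2.46% of all clusters. In UN-RG-TU against UN-RG-Veh 5 were lower, beside 3.18%, and in NN-TU 4 were lower, beside 1.93%. None of the 4 passed without the arrays carrying testis transcripts. The mean of the 15 was 11.5 to 12.3 in NN-Veh, 11.0 to 12.3 in NN-TU and 12.3 to 12.4 in UN-RG-Veh, with UN-RG-TU at 11.3 to 12.2, with 14 of 15 above the controls on all arrays.

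Of 10 stromal progenitor genes, *Thy1* and *Cd55* were lower in UN-RG-Veh (−0.39 ± 0.14 and −0.50 ± 0.23), *Thy1* was lower in NN-TU (−0.53 ± 0.14) and *Pi16* was higher in UN-RG-TU (1.12 ± 0.32). With each array centred on its median, or with quantile normalization, neither *Thy1* nor *Cd55* passed in UN-RG-Veh. Their mean was 9.73 to 10.25 in NN-Veh, 9.77 to 10.07 in NN-TU and 9.64 to 9.98 in UN-RG-Veh, with UN-RG-TU at 9.59 to 10.27, with 9 of the 10 above the controls on all arrays. Of 9 endothelial genes, *Pecam1* and *Tie1* were lower in UN-RG-TU against UN-RG-Veh (−0.42 ± 0.14 and −0.40 ± 0.18), beside 3.18% of all clusters. *Pecam1* passed in 5 of the 8 fits that left out 1 array and *Tie1* in 2. *Tie1* did not pass by the methods' t-test or with only the compared groups. In NN-TU against NN-Veh no endothelial gene was lower and *Esam* was higher (0.40 ± 0.14), but not without the arrays carrying cilia transcripts. Of 11 smooth muscle and pericyte genes, 3 were higher (*Acta2*, *Actg2* and *Tagln*) and 1 lower (*Kcnj8*) in UN-RG-TU against UN-RG-Veh. *Acta2* is also counted in the list of TGFβ and fibrosis, and *Actg2* was below the controls in both groups. *Actg2*, *Tagln* and *Kcnj8* did not pass by the methods' t-test. Of 13 adipocyte genes, *Retn* was lower in UN-RG-Veh, *Retn* and *Slc2a4* were higher in UN-RG-TU against UN-RG-Veh, and *Pnpla2* and *Slc2a4* were higher in NN-TU. Of 13 testis genes, *Ldhc*, *Prm1* and *Tnp1* were lower in UN-RG-Veh against NN-Veh, beside 1.99% of all clusters. None of these passed by the methods' t-test, *Prm1* and *Tnp1* not without the arrays carrying testis transcripts, and *Ldhc* not without NN-Veh 03. *Ldhc* and *Tnp1* were below the controls in both groups. None of the 12 cilia genes passed. The part of these cell types in the collagen differences was not tested.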

How the data were processed

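Total RNA of epididymal fat was hybridised to Clariom S mouse arrays after labelling with the WT PLUS kit. The deposited intensity values had been normalized and summarised by the authors to 1 linear value per transcript cluster and array. The paper's methods and the submitters' processing notes name 2 programs of the maker, Transcriptome Analysis Console and Expression Console. The versions and the normalization method are not given in the sources used here. The arrays carry no batch label, and their number, 4 a group, limits the precision. Groups were taken from the sample titles.

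Log2 values were taken. Of 22520 lines, 314 control probe sets were left out, and 22206 clusters were tested, of which 19572 carry 1 symbol and 2634 none. No filter on dim clusters was applied. Group means over all 16 arrays were fitted in 1 model with limma 3.58.1 (R 4.3.3) with moderated variances, and each comparison was adjusted by the Benjamini-Hochberg procedure across its 22206 clusters. Adjusted p-values of genes come from this fit. Besides an adjusted p of 0.05, the study's thresholds were used, an unadjusted p under 0.05 with a linear fold change of at least 1.3. A level above the control median is a threshold set here, not a detection call of the array software. Pair correlations used permutation tests with 1e+05 resamples, two-sided, in numpy 2.4.6 (Python 3.11.15), with ranks from scipy 1.17.1, and figures matplotlib 3.10.9. The fit was tested on simulated data with known changes.

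Named are the collagen genes past the study's thresholds in any comparison, the chains of collagens I, III, IV (*Col4a1*, *Col4a2*), V, VI, XV and XVIII, and up to 4 genes of each other list with the smallest p past the thresholds. Genes named beyond these, such as *Col4a3* and *Col6a5*, and genes beyond 4 of a list, were picked with their values in view. The members and lists were chosen with earlier results of these data known. Alternatives were dim clusters left out, median centring, quantile normalization, only the compared groups, an intensity trend with a robust prior, the methods' t-test, the mean of several clusters of a symbol, and leaving out single arrays, the arrays with cilia transcripts or, chosen after seeing the data, those with testis transcripts. An array counted as carrying such transcripts where the mean of the list stood at least 1 on the log2 scale above the median array.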

Additional observations from a re-analysis of the deposited data

Results flagged for a closer look

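An array was looked at again where it stood far from the other 3 of its group, which chance gives in about 1 in 20 groups. Of 88 groups examined, 3 held such an array. *Col11a1* was 5.453 on UN-RG-Veh 11 against 4.935 to 5.005 on the others and 5.365 on UN-RG-TU 15 against 4.939 to 5.002, with all of these values below the antigenomic controls. The mean deviation of the 6 chains outside the fibrillar, basement membrane and collagen VI classes was 0.354 on UN-RG-Veh 11 against −0.045 to 0.021 on the others, the array on which *Col16a1* and *Col13a1* had their highest values.

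The TU effect differed between UN-RG and NN pups for 2 genes that passed the study's thresholds, an unadjusted p under 0.05 in limma with a fold change of at least 1.3, by 0.4576 on the log2 scale for *Col5a1* and by 0.6735 for *Col15a1*, both with an adjusted p of 1.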

How the results depend on the processing

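In no fit did a collagen gene pass the adjusted p. The number of members past the study's thresholds stayed within 1.5 times that given except as follows. In NN-TU against NN-Veh it was 9 with only the compared groups and 8 by the methods' t-test, against 5, and 2 to 8 when 1 array was left out. In UN-RG-TU against UN-RG-Veh it was 5 without the arrays carrying cilia transcripts, against 3, and 2 to 6 when 1 array was left out. In UN-RG-TU against NN-TU it was 2 without those arrays, against 0, and 0 to 3 when 1 array was left out. For the interaction it was 1 with an intensity trend and robust prior, 1 without the arrays carrying cilia transcripts and 1 without those carrying testis transcripts, against 2, and 1 to 4 when 1 array was left out, with *Col15a1* among them in all of these. The cause was not tested. *Col4a1* with *Col4a2* gave 0.4406 without the 2 farthest arrays, *Col4a3* with *Col4a4* gave 0.5049 without them, 0.5265 as Spearman rho and 0.0609 without the arrays carrying cilia transcripts, and *Col4a5* with *Col4a6* turned to −0.1424 with group means removed. No paired analysis was possible because the groups share no replicate numbers. Over all settings, values of named collagen genes gave the same call in 1464 cases, a moved value in 62, a gained pass in 51 and a lost pass in 51, and those of listed genes the same call in 1535 and a lost pass in 335. With 21 of the 42 genes not above the controls on all arrays, changes in the dimmer chains could not be measured well.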
